A study of Mus musculus with 2 samples.

Results

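Cytosolic ribosomal protein genes, the genes of the protein parts of the ribosome that works outside the mitochondria, were described in single cells of blood-forming tissues of the mouse embryo. A row of the count tables was taken as a member if its name was Rpl or Rps followed by a number and at most a letter or X, or was Rplp0, Rplp1, Rplp2 or Rpsa. Rows with -ps or Gm names were left out. The rule found 79 members, the same in both tables, of 20575 gene rows at embryonic day 9.5 (E9.5) and 20823 at E11.5. The aorta-gonad-mesonephros region (AGM) and the yolk sac of wildtype C57Bl/6 embryos had been sorted into live cells positive or negative for VE-cadherin, a surface protein of endothelial cells. The cells of each stage were dispensed on 1 ICELL8 nanowell chip, so that stage and chip cannot be told apart. Every chip thus held 4 pools (AGM positive, AGM negative, yolk sac positive, yolk sac negative), positive control wells with RNA from the mouse embryonic stem cell line E14FF, and negative control wells. All embryos were untreated, and each of the 8 pools is 1 sample of pooled embryos.

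The cytosolic ribosome has a small subunit, which reads the message and carries the Rps proteins, and a large subunit, which joins the amino acids and carries the Rpl proteins. Most of these proteins are needed in 1 copy per ribosome, and their messages share a pyrimidine-rich start, the terminal oligopyrimidine tract, through which the mTOR pathway sets their translation. In blood formation the family is known from Diamond-Blackfan anaemia, in which a mutation in a gene such as Rps19, Rpl5 or Rpl11 impairs the making of red cells.

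The first bases of the message are the part the family is known to share, and were therefore read from promoters of the RefSeq set (build GRCm38.p6). Of the 79 members, 58 matched, with 70 promoters. A run that opens with C and goes on with at least 4 bases that are C or T, placed exactly at the annotated start on the gene's strand, was found for 13 of the 58 members (22.4%) and for 3.01% of all 27025 genes with a promoter. A run of at least 7 such bases that opened with C within 10 bases of the start was found for 25 members (43.1%) and 12.9% of all genes. The letters TATAAA, between 40 and 16 bases before the start, were found for 0 of the 58 members and 2.41% of all genes. Printed here are 20 bases before the start and the 20 from the start on, 5′ to 3′, with the run in capitals. The first 5, whose share of the family shifted in 1 or more comparisons below, have it from the start on. In these 5, C or T also stands just before the start, where the search for a run at the start did not look. Their capitals therefore mark only the part from the start on. Rpl13a has the run 2 bases on. The last 4, which had wide shifts between gates or tissues at E11.5, have no such run of 7 bases within 10 bases of the start.
Rps27 (chr3:90213629-90213668, minus strand): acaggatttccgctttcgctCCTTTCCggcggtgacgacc
Rpl28 (chr7:4792945-4792984, plus strand): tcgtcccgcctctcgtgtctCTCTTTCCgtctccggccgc
Rpl14 (chr9:120571497-120571536, plus strand): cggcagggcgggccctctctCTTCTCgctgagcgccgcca
Rpl38 (chr11:114668560-114668599, plus strand): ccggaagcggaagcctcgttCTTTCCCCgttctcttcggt
Rplp2 (chr7:141447631-141447670, plus strand): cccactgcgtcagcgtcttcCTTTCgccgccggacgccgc
Rpl13a (chr7:45128726-45128765, minus strand): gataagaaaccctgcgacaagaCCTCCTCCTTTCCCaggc
Rpsa (chr9:120127746-120127785, plus strand): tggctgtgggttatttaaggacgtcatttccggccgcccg
Rps2 (chr17:24720043-24720082, plus strand): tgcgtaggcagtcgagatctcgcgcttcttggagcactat
Rpl10 (chrX:74270796-74270835, plus strand): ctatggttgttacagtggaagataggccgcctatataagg
Rps4x (chrX:102189372-102189411, minus strand): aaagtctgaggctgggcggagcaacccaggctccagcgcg
A match says only that the letters are there. The annotated start may lie some bases from the start that cells use.

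Endothelial markers were higher in each positive pool than in the negative pool of its tissue, though fewer positive wells showed them at E11.5. The 12 endothelial markers summed to 1325 to 2253 CPM (counts scaled to 1000000 per pool) in the positive pools and 41.9 to 102 CPM in the negative ones, and the 7 pluripotency markers to 3851 and 3730 CPM in the control RNA against 4.66 to 32.1 CPM in the pools. At least 3 endothelial markers were seen in 281 of 299 AGM and 280 of 325 yolk sac positive wells at E9.5, but on the E11.5 chip in 140 of 284 and 135 of 343. Median depth per well lay between 3961 and 12452 counts in pools of the E9.5 chip, and between 2538 and 3842 in those of E11.5. Haemoglobin rows took 3.47% to 37.0% of a pool's counts and also 23.1% and 23.8% of the few counts in the negative control wells. The tables share 473 well barcodes, 344 of them among kept wells of each chip. Since no pool has a replicate, no test across samples exists. The exact 95% intervals given below reflect counting error alone, and whether the authors counted molecules or reads is not given in the sources used here.

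The 79 genes together took close to 1 in 7 counts at E9.5 and a smaller share at E11.5. At E9.5 they held 13.4% of all counts in AGM positive, 14.5% in AGM negative, 13.7% in yolk sac positive and 14.8% in yolk sac negative cells. At E11.5 the same pools held 6.28%, 9.33%, 4.98% and 6.67%. The control RNA held 15.8% on the E9.5 chip and 19.1% on the E11.5 chip, so that the control wells differed between the chips in the other direction (log2 ratio 0.27, interval 0.25 to 0.29). Every E11.5 pool lay below every E9.5 pool. Less ribosomal protein RNA per cell, fewer cells rich in it and more RNA of other genes cannot be told apart in such sums. Over single wells, the 95th percentile at E11.5 and the 5th at E9.5 were 8.26% and 10.7% in yolk sac positive cells. They were 10.1% and 12.7% in yolk sac negative cells. In AGM the wells overlapped, with 11.4% and 8.09% in positive and 15.8% and 8.96% in negative cells. The ribosomal RNA row Gm42418 moved with the difference between the stages, at 9.44% to 14.3% of counts at the earlier stage, and 15.97% to 19.4% at the later one. Its part in the difference was not tested.

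**Figure D1:**
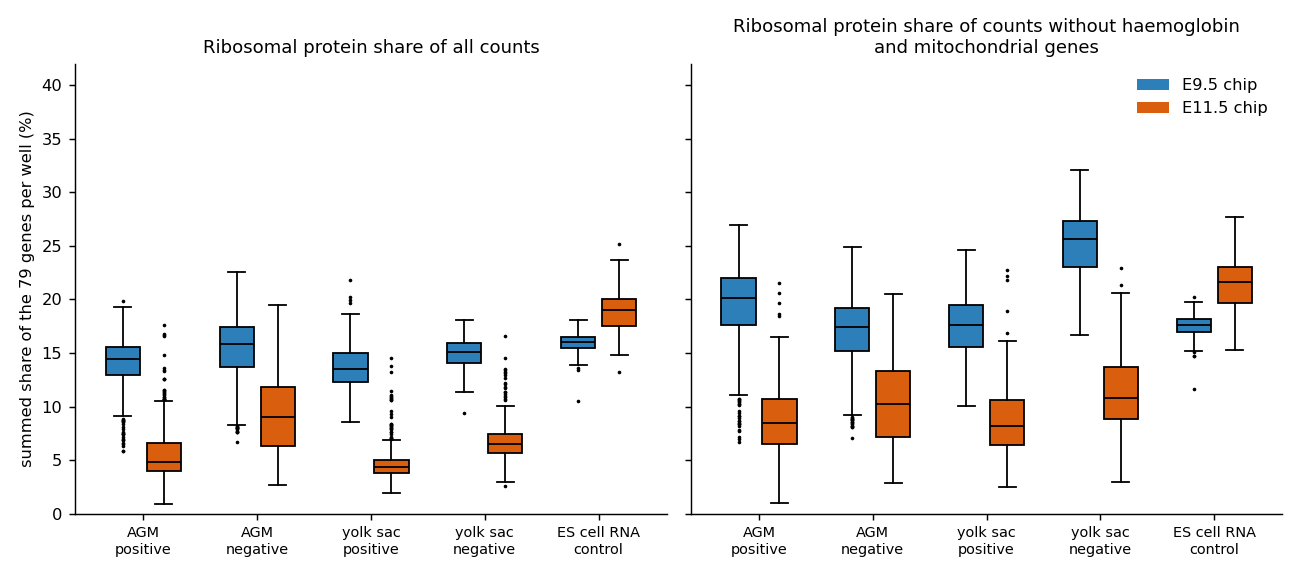
Summed share of the 79 ribosomal protein genes in each well (y axis, percent of counts) for the 4 pools and the control RNA of each chip, of all counts at left and of counts without haemoglobin and mitochondrial genes at right. Boxes span the quartiles with the median as a line, and points are wells beyond the whiskers. The E9.5 medians of the pools at left lie between 13.5% and 15.8%, the E11.5 medians between 4.36% and 9.05%.

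In single wells the negative gate again lay above the positive gate of its tissue, while the tissues changed places within both gates of E9.5. The median well of the E9.5 pools held 14.5% (quartiles 12.97% and 15.6%) in AGM positive, 15.8% (13.7% and 17.4%) in AGM negative, 13.5% (12.3% and 15.0%) in yolk sac positive and 15.1% (14.1% and 15.9%) in yolk sac negative cells. At E11.5 the medians were 4.86% (3.94% and 6.62%), 9.05% (6.36% and 11.8%), 4.36% (3.80% and 5.05%) and 6.51% (5.64% and 7.46%). Relative to the mean, the E11.5 wells were the more uneven: the coefficient of variation of the share was 0.088 to 0.20 at E9.5, against 0.28 to 0.50 in the later pools, with 0.087 and 0.13 in the control wells. The coefficient was highest, 0.50, in E11.5 AGM positive wells, which ran from 0.88% to 17.6%.

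How many members a well showed also differed between the chips. In wells thinned to 2000 counts, the median well of the E9.5 pools had a count for 68 to 70 of the 79 members. At E11.5 it had one for 49 in AGM positive, 63 in AGM negative, 46 in yolk sac positive and 55 in yolk sac negative cells. The control wells gave 71 and 70, so that the smaller number was not seen in the control RNA of the E11.5 chip. Without thinning, the E9.5 medians were 73 to 75 and the E11.5 medians 52, 66, 54 and 66 in the same order. Thinning left out 0 to 6 wells of a pool on the first chip, and 15 to 87 on the second. It fixed the counts of all genes, so a well with a smaller ribosomal protein share kept fewer counts to spread over the members. The number of members seen is therefore not independent of the share, and was not compared at equal ribosomal protein counts.

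At E9.5, wells with more counts held a smaller ribosomal protein share. Over the wells of a pool, Spearman's rho of share against counts was -0.51 in AGM positive (299 wells), -0.65 in AGM negative (354), -0.22 in yolk sac positive (325) and -0.49 in yolk sac negative cells (305). At E11.5 it was 0.23, 0.15, -0.08 and -0.16 in the same order. Both values of a well come from the same library and the same counts, so rho is a description only. Haemoglobin moved with the share as well at E9.5. There the ribosomal protein share of all counts had a rho with the haemoglobin share of 0.45, 0.65, 0.28 and 0.64. At E11.5 it was -0.24, -0.11, -0.03 and 0.14. Of counts without haemoglobin and mitochondrial genes, the ribosomal protein share of a well had a rho with its haemoglobin share of 0.76, 0.69, 0.55 and 0.86 at E9.5, with 0.12, -0.04, 0.58 and 0.63 on the other chip. Leaving haemoglobin out of the total by itself raises this share in wells rich in haemoglobin.

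**Figure D2:**
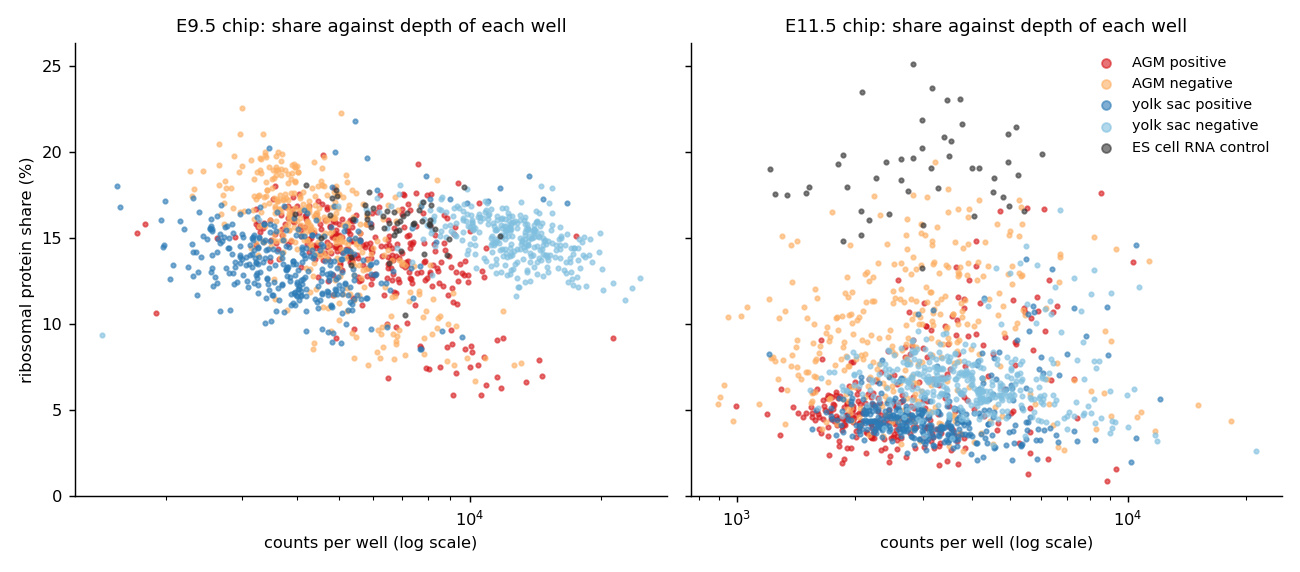
Ribosomal protein share of each well (y axis, percent of its counts) against the counts of the well (x axis, log scale), 1 point per well, coloured by pool, on the E9.5 chip at left and the E11.5 chip at right. Within pools the share is lower in deeper wells at E9.5 (rho -0.22 to -0.65), and the E11.5 control wells, with a median of 19.0%, lie above nearly all cells of that chip.

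Levels between members were compared per kilobase of the principal transcript, over the 4 pools of a chip. Rplp1, an acidic protein of the stalk where elongation factors bind, was highest with 12922 CPM per kilobase at E9.5 and 5306 at E11.5. Rpl41, the shortest ribosomal protein, followed with 11006 and 4191. Rps28, of the head of the small subunit, had 6573 and 3515, Rpl32 of the large subunit 6210 and 3259, and Rps29, a small zinc-binding protein, 4556 and 3919. Among members seen in every pool that have a principal transcript in the annotation, which Rps4l does not, the lowest at E9.5 was Rpl13a with 245, and 81.9 on the other chip. Rpl15 was lowest of these at E11.5 with 51.2, against 541 at E9.5, and Rps6, the substrate of S6 kinase, had 333 and 84.9. Dividing by length assumes reads from the whole transcript, which the sources used here do not give. The members' principal transcripts are short, with a median of 774.5 bases against 2424 bases over 21870 protein-coding genes, and lie on 19 chromosomes.

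Rpl3l, Rpl10l and Rpl39l, copies of Rpl3, Rpl10 and Rpl39 known for striated muscle and male germ cells, were at or near 0 in all pools, between 0 and 2.17 CPM for Rpl39l and between 0 and 0.84 CPM for Rpl10l. They had fewer than 20 counts over each pair of pools, so 76 of the 79 members entered each comparison of pools. Rps27l, a relative of Rps27 known as a p53 target, had 496 to 542 CPM across pools at E9.5, and 177 to 221 CPM across the later ones. Rps4l, which the annotation lists as a transcribed pseudogene, had 43.0 to 84.6 and 32.1 to 65.1 CPM.

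The VE-cadherin positive and negative gate of a tissue were compared within a chip. Over the total of all genes, the summed ribosomal protein counts were lower in the positive gate in all 4 pairs, with log2 ratios of -0.12 (interval -0.12 to -0.11) for E9.5 AGM, -0.12 (-0.12 to -0.11) for the E9.5 yolk sac, -0.57 (-0.59 to -0.56) for AGM at E11.5, and -0.42 (-0.44 to -0.41) for the yolk sac at E11.5. The haemoglobin share also differed between the gates, at 22.2% in the positive and 4.30% in the negative gate of E9.5 AGM, 17.7% and 37.0% in E9.5 yolk sac, 25.5% and 3.47% in E11.5 AGM, and 35.96% and 32.9% in E11.5 yolk sac. Over totals without haemoglobin and mitochondrial genes, the log2 ratios were 0.18, -0.50, -0.16 and -0.31. The direction in E9.5 AGM thus turned with the total, and that in E11.5 AGM turned when Gm42418 was left out too (0.046) or with TMM scaling (0.13), while in the yolk sac of both stages the positive gate stayed lower. Markers of other cells moved with the gates as well. The 11 macrophage markers summed to 36.3 CPM in the positive and 42.4 CPM in the negative gate of E9.5 AGM, 700.02 and 50.5 CPM in E9.5 yolk sac, 1476 and 69.7 CPM in E11.5 AGM, and 1057 and 125 CPM in the yolk sac at E11.5. The 9 mesenchymal markers summed to 18.9 to 733 CPM in the positive gates and 428 to 8236 CPM in the negative ones. In E9.5 AGM, Cd68, C1qb and C1qc were at 0 in the positive gate and Csf1r, C1qa, C1qb and C1qc in the negative gate. In E11.5 yolk sac the 8 visceral endoderm markers summed to 7776 CPM in the positive and 3137 CPM in the negative gate, and 336 of 343 positive and 303 of 379 negative wells showed at least 3 of them. The part of these cells in the gate ratios was not tested. With a stricter cell limit, 1000 genes or more and no more than 10% of counts from mitochondria, the E11.5 ratios over all genes were -0.14 in AGM and -0.08 in yolk sac. Only 77 of 284 positive and 219 of 337 negative AGM wells, and 77 of 343 and 196 of 379 yolk sac wells, met this limit. The E11.5 differences were thus smaller in these wells. Depth and mitochondrial share were limited together, so their parts cannot be told apart here.

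Member by member, no gene was 2-fold apart between the gates of E9.5 AGM: 0 of 76 members were 2-fold higher and 0 lower in the positive gate, against 7.28% and 21.3% of all genes with at least 20 counts over the pair. In E9.5 yolk sac the members gave 0 and 0 against 41.8% and 2.55% of all genes. In E11.5 yolk sac they gave 0 and 0 against 9.65% and 13.6%. In E11.5 AGM the positive gate had Rpl10, Rpl15 and Rps4x lower by 2-fold or more, 3 members against 39.9% of all genes, and 0 higher, against 6.78%. Members thus passed 2-fold less often than genes at large, which have fewer counts, and whether that holds at equal counts was not tested.

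The median member had a log2 ratio of -0.11 in E9.5 AGM, where the median of all genes was -0.39, and all 76 members lay above that median. In E9.5 yolk sac the medians were -0.08 and 0.82, and 1 member, Rps4l, lay above the median of all genes. In E11.5 AGM they were -0.61 and -0.80, with 64 members above, and in E11.5 yolk sac -0.41 and -0.12, with 2 above. Set against the median gene, the members were therefore mostly higher in the positive gate of the AGM and mostly lower in that of the yolk sac, at both stages. The median of all genes differs between gates itself, so this order is relative to it.

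Over the total of all genes, 26 of 76 members were lower in the positive gate in all 4 pairs with every interval excluding 0, and 0 were higher. Over all 7010 genes with enough counts in every pair, 0.956% were lower and 2.85% higher in this way. Genes with at least 1000 counts in each pair, whose intervals are as narrow, gave 22.2% lower, 26 of 117 genes, of which 24 were among the 64 members at that depth. In the other direction they gave 1.71%, with 0 of the 64 members. The 26 members include the whole stalk (Rplp0, Rplp1 and Rplp2), Rps19, Rps3 with its place at the entry of the message, and Rps27. Over totals without haemoglobin and mitochondrial genes, 0 of 76 were lower and 0 higher in all 4 pairs, against 0.571% and 4.15% of all genes. The call of these 26 genes ended with that change of total.

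To compare members with each other, each gene's counts were divided by the sum over the 79 members in its pool. The log2 ratio of this share between pools, the composition ratio, does not move with the haemoglobin counts of a pool. It had a standard deviation over members of 0.11 at E9.5 in AGM, 0.16 at E9.5 in yolk sac, 0.21 at E11.5 in AGM, and 0.15 at E11.5 in yolk sac. The median member differed by 0.067, 0.074, 0.12 and 0.10 in size, so most kept nearly the same share of the family in either gate.

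Rps27 and Rps29, both small zinc-binding proteins of the small subunit, were the members with a composition ratio on the same side in all 4 gate pairs and every interval excluding 0. Rps27 had 1315 CPM in AGM positive and 1613 CPM in AGM negative, 1208 CPM in yolk sac positive and 1534 CPM in yolk sac negative cells at E9.5. At E11.5 it had 964 and 1776 CPM in the AGM gates and 705 and 1060 CPM in the yolk sac gates. The positive gate was lower each time, with composition ratios of -0.18 (-0.26 to -0.10), -0.23 (-0.31 to -0.15), -0.31 (-0.43 to -0.19) and -0.17 (-0.29 to -0.05).

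Rps29 went the other way within the family. Its levels in the positive and negative gate were 1762 and 1790 CPM in E9.5 AGM, 1832 and 1758 CPM in E9.5 yolk sac, 1581 and 1853 CPM in E11.5 AGM, and 1257 and 1481 CPM in E11.5 yolk sac. Its composition ratios were 0.09 (0.02 to 0.16), 0.18 (0.11 to 0.24), 0.34 (0.24 to 0.44) and 0.19 (0.09 to 0.28), so Rps29 took a larger share of the family in each positive gate. In wells under the stricter limits the 4 ratios ranged from 0.10 to 0.36 for Rps29 and from -0.23 to -0.17 for Rps27. No near-identical pseudogene copy was found for Rps29, and adding the counts of copies left Rps27 at -0.31 to -0.16.

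**Figure D3:**
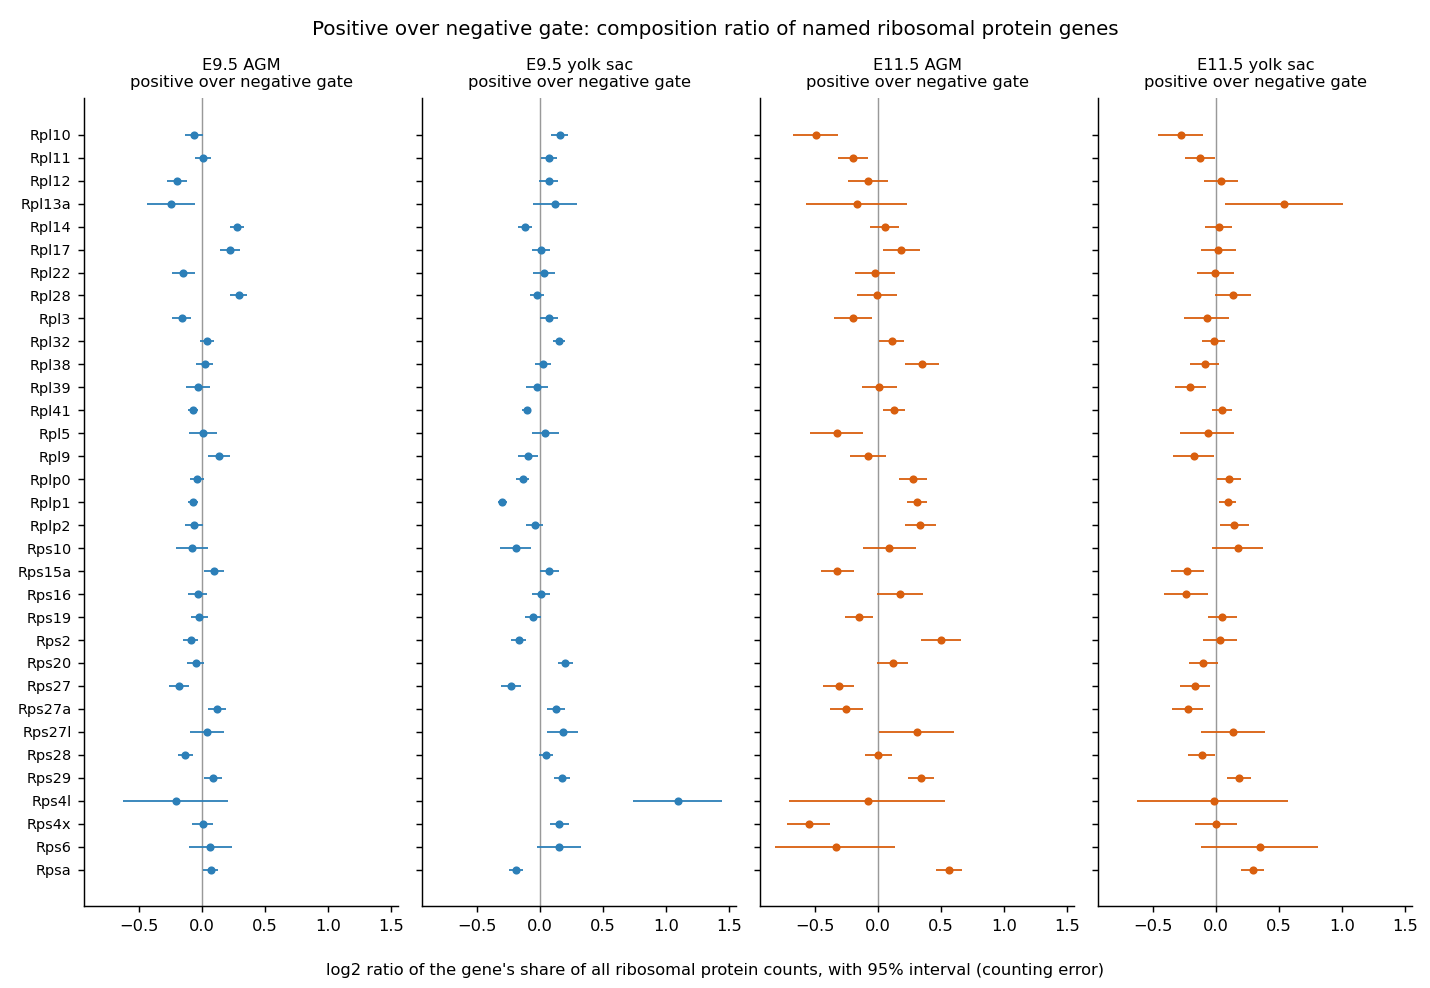
Composition ratio, the log2 ratio of a gene's share of all ribosomal protein counts in the positive over the negative gate (x axis), for members with at least 100 counts over each gate pair, most of those named (y axis), with exact 95% intervals for counting error. Rps27 lies left of 0 and Rps29 right of 0 in all 4 panels.

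In E9.5 AGM the members with the highest composition ratio were of the large subunit. Rpl28, which has no bacterial counterpart, had 2201 CPM in the positive and 1946 CPM in the negative gate (composition ratio 0.29, 0.23 to 0.36). Rpl14 had 3072 and 2744 CPM (0.28, 0.22 to 0.33) and Rpl17, at the exit of the new protein, 1399 and 1298 CPM (0.22, 0.14 to 0.31). These 3 were higher in the positive gate also over the total of all genes, where the summed family was lower. At the low end were Rpl13a (225 and 288 CPM, -0.24, -0.43 to -0.05) and Rpl12, of the stalk base (1334 and 1652 CPM, -0.19, -0.27 to -0.12).

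E9.5 yolk sac gave another order. Rplp1 was lower in the positive gate (5600 and 7462 CPM, composition ratio -0.30, -0.33 to -0.26), and the family's largest ratio was that of Rps4l, with 84.6 and 43.0 CPM (1.09, 0.74 to 1.44). Rps20, of the small subunit, had 2243 and 2115 CPM (0.20, 0.14 to 0.26) and Rps10 -0.19 (-0.31 to -0.07).

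Within E11.5 AGM the widest shifts between gates were those of Rpsa, Rps2, Rps4x and Rpl10. Rpsa, the small subunit protein also known as the laminin receptor precursor, had nearly level counts in the AGM gates (1532 and 1539 CPM), while the family as a whole was lower in the positive gate, which gave a composition ratio of 0.56 (0.46 to 0.67). Rps2, near the entry of the message, gave 0.50 (0.34 to 0.66) with 648 and 680 CPM, and Rpl38, known for its part in the translation of Hox messages, 0.35 (0.22 to 0.48) with 915 and 1066 CPM. Rps4x (459 and 996 CPM, -0.55, -0.72 to -0.38) and Rpl10, which joins the large subunit last (424 and 885 CPM, -0.49, -0.67 to -0.31), were at the low end.

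In E11.5 yolk sac the ends were Rpl13a (60.0 and 55.2 CPM, 0.54, 0.07 to 1.01), Rps6 (0.35, -0.12 to 0.81) and Rpsa (0.29, 0.20 to 0.38). At the low end were Rpl10 (318 and 518 CPM, -0.28, -0.46 to -0.10), Rps16 (-0.24, -0.41 to -0.06) and Rps15a (-0.23, -0.36 to -0.10). The cell filter bore on several of these values. Under the stricter limits, Rpsa had 0.32 in AGM and 0.02 in yolk sac, Rps2 0.27 in AGM, and Rplp0, at 0.28 in AGM with all kept wells, had -0.00035. Rps4x (-0.47) and Rpl10 (-0.42 in AGM and -0.20 in yolk sac) moved less.

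Of genes named whatever their values, Rps19 had composition ratios between gates of -0.02 and -0.05 at E9.5, with intervals that held 0, then -0.15 (-0.26 to -0.03) in E11.5 AGM and 0.05 in E11.5 yolk sac. Rpl5, which carries the 5S RNA with Rpl11, had 0.01 and 0.04 at E9.5, -0.32 (-0.53 to -0.12) in E11.5 AGM and -0.07 in E11.5 yolk sac. Rpl11 had 0.01, 0.07 (0.0070 to 0.14), -0.20 (-0.32 to -0.08) and -0.13 (-0.25 to -0.01). Rpl22, whose loss is known to impair T cell development, had -0.15 (-0.24 to -0.06) in E9.5 AGM and values from -0.02 to 0.04 in the other 3 pairs.

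AGM and yolk sac were compared within each gate. Over all genes the summed family differed little at E9.5, with a log2 ratio of AGM over yolk sac of -0.03 (-0.03 to -0.02) in both gates, and was higher in AGM at E11.5, by 0.34 (0.32 to 0.35) in the positive and 0.48 (0.47 to 0.50) in the negative gate. Over totals without haemoglobin and mitochondrial genes the E9.5 ratios were 0.05 and -0.63, the E11.5 ratios 0.10 and -0.05. Haemoglobin rows held 4.30% of the E9.5 AGM negative and 37.0% of the E9.5 yolk sac negative pool, and 3.47% and 32.9% at E11.5. The 8 visceral endoderm markers summed to 383 CPM in E11.5 AGM positive and 7776 CPM in yolk sac positive cells, and to 263 and 3137 CPM in the negative gate, and their part was not tested. The E11.5 positive gate and the E9.5 negative gate kept the direction of the ratio in all totals tried, and the ratios of the negative gate changed most in size.

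In the E9.5 positive gate 0 members were 2-fold higher and 0 lower in AGM, against 3.58% and 9.45% of all genes, and in the E9.5 negative gate 0 and 0 against 56% and 4.32%. In the E11.5 positive gate the counts were 0 and 0 against 10.8% and 4.8%. In the E11.5 negative gate 2 members, Rpl3 and Rpl13a, were at least 2-fold higher in AGM, against 43.8% of all genes, and 0 lower, against 5.59%. Rpl21, Rps13 and Rps27 were higher in AGM in all 4 tissue pairs with every interval excluding 0, which is 3 of 76 members against 1.98% of all genes, and 0 were lower, against 0.202%. Genes with at least 1000 counts in each pair gave 4.3% higher, 4 of 93 genes, of which 3 were among the 56 members at that depth. In the other direction they gave 0 of 93. Without haemoglobin and mitochondrial genes in the total, 0 of 76 members were higher and 0 lower, against 1.37% and 0.701% of all genes.

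Rpl32 was the member with a composition ratio on the same side in all 4 tissue pairs. In AGM and yolk sac it had 2944 and 3409 CPM in the E9.5 positive gate, 3092 and 3323 CPM in the E9.5 negative gate, 1520 and 1307 CPM in the E11.5 positive gate, and 2090 and 1773 CPM in the E11.5 negative gate. Between the tissues, its composition ratios were -0.19 (-0.24 to -0.13), -0.08 (-0.12 to -0.03), -0.12 (-0.22 to -0.01) and -0.25 (-0.33 to -0.17), so that it held a smaller share of the family in AGM each time.

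**Figure D4:**
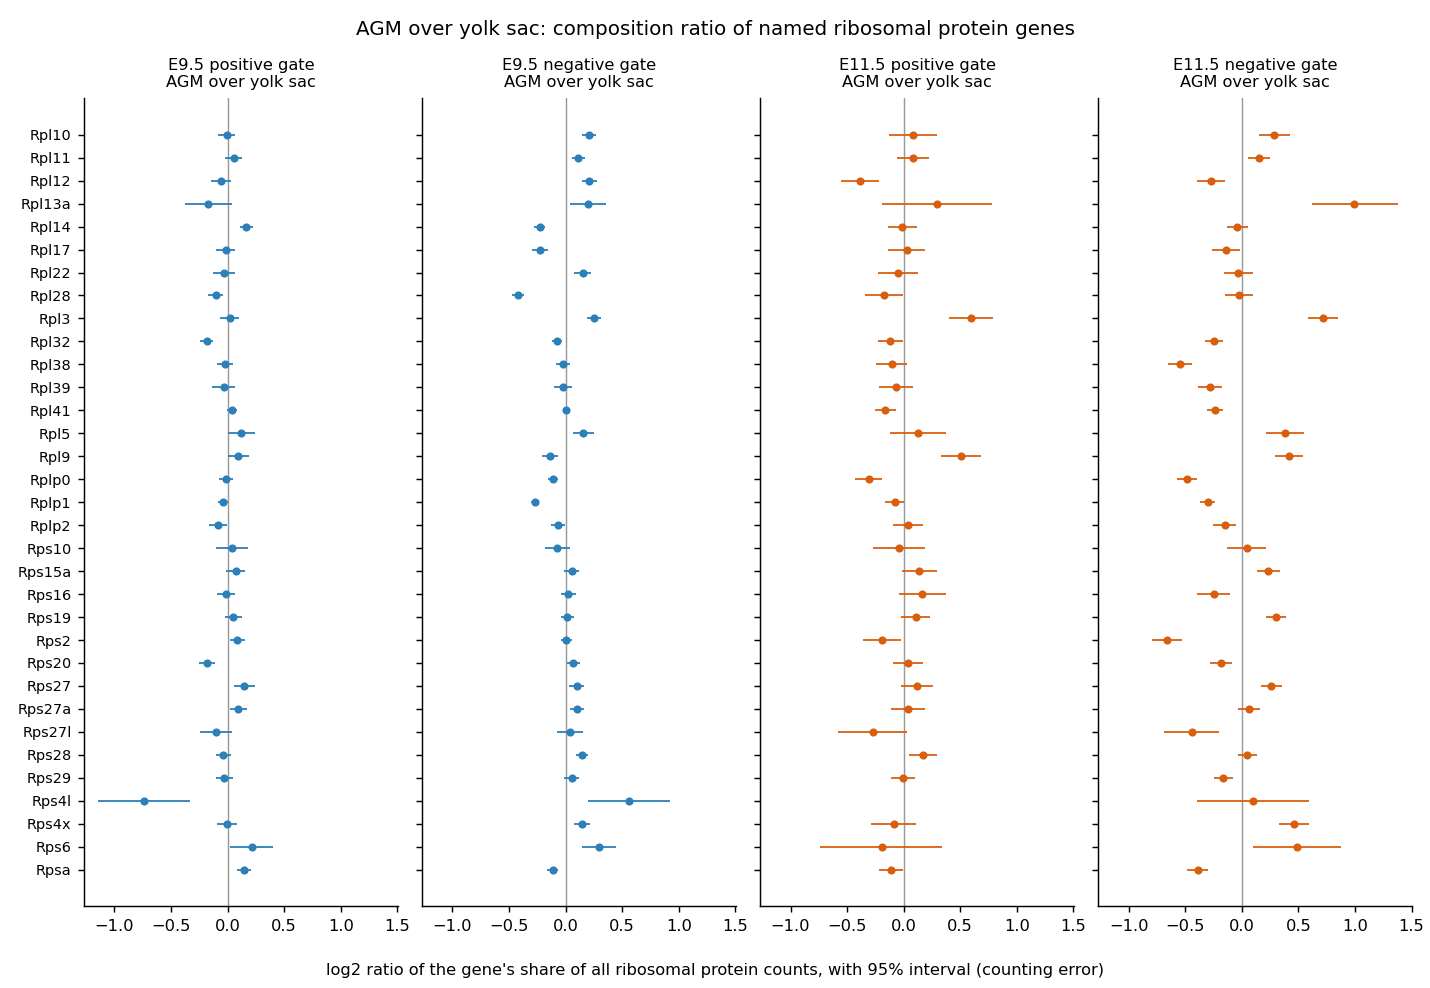
Composition ratio of AGM over yolk sac (x axis, log2) for the same members (y axis) in the positive and negative gate of each stage, with exact 95% intervals for counting error. Rpl32 lies left of 0 in all panels, and the E11.5 negative gate has the widest spread, from -0.66 (Rps2) to 1.00 (Rpl13a).

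The E11.5 tissues differed most within the family. Rpl3, which reaches towards the peptidyl transferase centre, had 631 CPM in AGM and 331 CPM in yolk sac of the positive gate (composition ratio 0.60, 0.40 to 0.79) and 1076 and 467 CPM in the negative gate (0.72, 0.59 to 0.85). Rpl9 had 713 and 397 CPM (0.51, 0.33 to 0.69) and 1120 and 601 CPM (0.41, 0.29 to 0.54). Both were higher in AGM in either gate of that chip, and under the stricter cell limits Rpl3 kept 0.59 and 0.66 and Rpl9 0.51 and 0.43.

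Rpl13a, known for silencing translation after it leaves the ribosome, had 154 CPM in AGM and 55.2 CPM in yolk sac of the E11.5 negative gate (1.00, 0.62 to 1.38), and in the positive gate 92.7 and 60.0 CPM with an interval that held 0 (0.29, -0.19 to 0.78). On the other side Rplp0, the base of the stalk, had -0.31 (-0.43 to -0.19) and -0.48 (-0.58 to -0.39), and Rpl12, its neighbour, -0.39 (-0.56 to -0.22) and -0.27 (-0.39 to -0.15). Rps2 (-0.66, -0.79 to -0.53), Rpl38 (-0.55, -0.65 to -0.44) and Rpsa (-0.39, -0.48 to -0.30) were low in AGM in the negative gate. These 3 had smaller ratios in the positive gate, between -0.19 and -0.11.

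At E9.5 the positive gate of the 2 tissues was close in composition (standard deviation 0.12), with Rps4l at the low end (49.9 and 84.6 CPM, -0.74, -1.14 to -0.33). In the negative gate Rpl28 (1946 and 2653 CPM, -0.42, -0.48 to -0.36), Rplp1 (6067 and 7462 CPM, -0.27, -0.30 to -0.24) and Rpl14 (2744 and 3280 CPM, -0.23, -0.28 to -0.18) were lower in AGM. Rps6 (0.30, 0.15 to 0.45) and Rpl3 (0.25, 0.19 to 0.31) were higher.

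Members with and without a pyrimidine run exactly at the start had overlapping composition ratios in every comparison. In E9.5 AGM, for example, the 13 members with the run had a median of 0.02 (-0.18 to 0.29) between gates and the other 42 with a matched promoter and at least 100 counts a median of 0.01 (-0.24 to 0.15). In the E11.5 negative gate the medians between tissues were 0.04 and 0.05. Rps27 and Rpl28, both printed above with the run, were the lowest and the highest of those 13 in the E9.5 AGM comparison.

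Other genes of translation were read from lists. The 8 measured of 9 other messages with a terminal oligopyrimidine tract or ribosome parts outside the rule, among them Fau, Rack1, Tpt1 and Naca, had median log2 ratios between gates of 0.01 (AGM) and -0.01 (yolk sac) at E9.5, then -0.58 (AGM) and -0.52 (yolk sac) at E11.5. The members had -0.11, -0.08, -0.61 and -0.41 in the same order. The 5 elongation factor genes had -0.28, -0.02, -0.84 and -0.35, the 24 initiation genes -0.09, 0.23, -0.74 and -0.03, and the ribosome assembly genes -0.25, 0.12, -0.61 and -0.28. The medians of all genes were -0.39, 0.82, -0.80 and -0.12. At least 2-fold lower in the positive gate of E11.5 AGM, where 39.9% of all genes were, were 2 of 5 elongation, 4 of 24 initiation, 3 of 8 of the first list, 4 of 19 measured assembly genes and 25 of 67 measured mitochondrial ribosomal protein genes. No assembly or elongation gene was 2-fold apart between the gates in the other 3 pairs.

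The control RNA of embryonic stem cells was the third kind of sample. On the E9.5 chip 2 of 77 members were at least 2-fold higher in it than in the 4 pools summed (Rpl39l and Rps4l), against 25.7% of all genes, and 1, Rpl29, was lower, against 13.1%. On the E11.5 chip 67 of 76 members were higher, against 30.4% of all genes, and 1 lower, again Rpl29, against 19.2%. The summed share on that chip was 19.1% in the control and 6.79% over the pools.

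Rpl29 had 32.2 CPM (10 counts) in the control wells and 697 to 738 CPM in the pools at E9.5, and 20.1 CPM (3 counts) against 268 to 517 CPM at E11.5. The pools were 22.6-fold higher at E9.5 (log2 ratio of control over pools -4.50, -5.56 to -3.62) and 19.3-fold at E11.5 (-4.27, -6.55 to -2.72). Pseudogene copies of Rpl29 held 3 and 4 counts in the control wells, over the 14 and 11 copies, of 68 in the annotation, that have a row in the tables. Reads at the other copies were not measured. Rpl39l had 93.4 and 80.5 CPM in the control wells against 1.24 and 0.63 CPM in the pools, log2 ratios of 6.23 (5.19 to 7.38) and 6.99 (5.10 to 9.46). Rps4l had 348 and 282 CPM against 54.7 and 45.3 CPM. Rpl10l had 7 counts in 6 of 46 control wells at E9.5 and 0 counts over the 4 pools, where 3 counts would be 0.34 CPM, and 2 and 1 counts at E11.5.

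**Figure D5:**
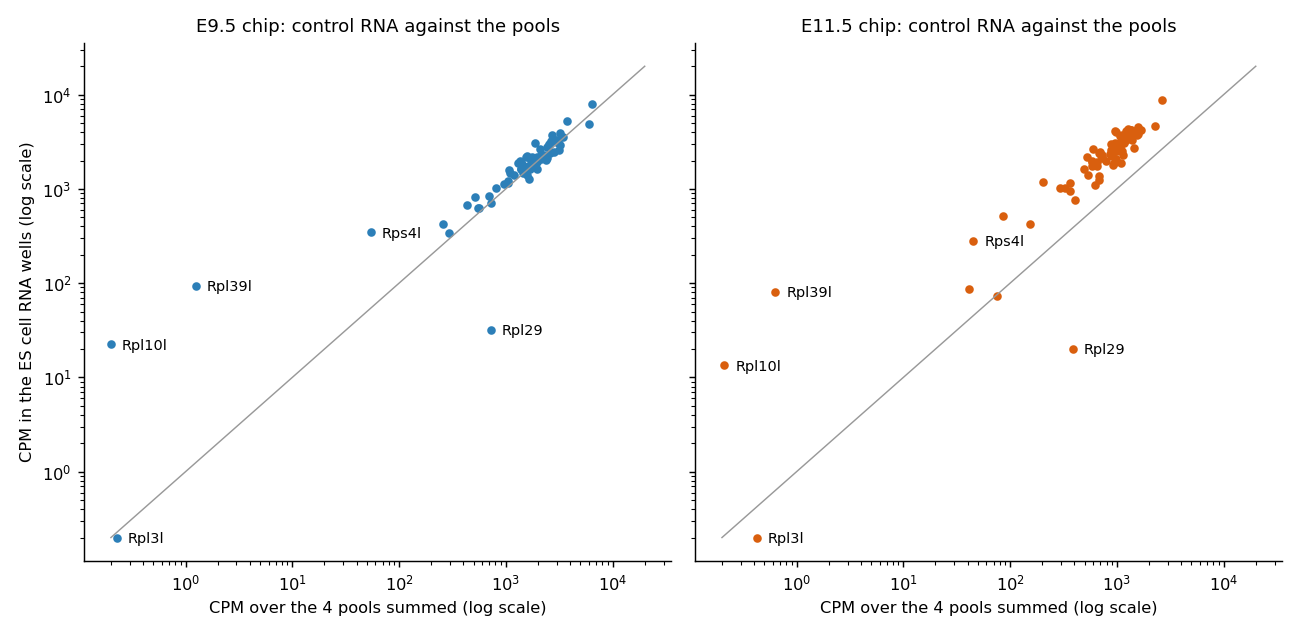
CPM of each of the 79 members in the embryonic stem cell RNA wells (y axis, log scale) against CPM over the 4 pools summed (x axis, log scale) on each chip, with the line of equal CPM and values under 0.2 CPM drawn at 0.2. Rpl29 lies far below the line and Rpl39l, Rpl10l and Rps4l above it on both chips.

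The same RNA on the 2 chips shows how far members differ between chips with no difference of stage. The composition ratio of the E11.5 over the E9.5 control wells had a standard deviation of 0.64, above that of every comparison within a chip. The median member differed by 0.26 in size, against 0.055 to 0.17 within a chip. The control wells held 49033 and 28451 ribosomal protein counts on the E9.5 and E11.5 chip, fewer than any pool of the same chip. Rpl15 and Rps6 had only 13 and 11 counts in those of the E11.5 chip. Rpl15 was lowest (679 and 87.2 CPM on the E9.5 and E11.5 chip, -3.24, -4.17 to -2.43), then Rps6 (341 and 73.8 CPM, -2.48, -3.53 to -1.59), Rpl35 (2138 and 771 CPM, -1.74, -2.04 to -1.46) and Rps2 (2386 and 1234 CPM, -1.22, -1.47 to -0.99). Pseudogene copies of Rpl15 went the other way in the control wells, with 167 and 859 CPM in the same order. The level of Rpl15 in these wells is therefore uncertain. Rpl30 was highest (1014 and 2153 CPM, 0.81, 0.58 to 1.04). The pools went the same way as the control wells for the low 4: Rpl15 had 409 to 487 CPM on the first chip, against 22.0 to 70.6 CPM on the second, and Rpl35 2274 to 2526 and 313 to 534 CPM. CPM of the family as a whole were lower in the E11.5 pools, and Rpl30 had 810 and 524 CPM over the pools summed. As a share of the family, Rpl15 held 0.289% to 0.335% in the E9.5 pools and 0.0441% to 0.0756% in those of E11.5. Rpl35 held 1.56% to 1.76% and 0.573% to 0.629%. Stage comparisons of single members were therefore not made.

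Many members have near-identical processed pseudogenes, and reads can be split among them. In the annotation, 1027 pseudogenes matched 70 of the 79 members over at least 200 bases at 90% identity or more. These copies had 359 rows at E9.5 and 362 rows at E11.5, and reads at copies without a row were not measured. Their rows held 4.16% to 4.51% of the counts of members and copies together in pools at E9.5, and 8.0% to 8.60% in those of the other chip, against 8.26% and 13.7% in the control wells. In the control wells the copies of Rpl11 held 54.7% and 61.6% of the counts of gene and copies, those of Rps13 46.0% and 59.0%, and those of Rplp1 26.1% and 46.5%. In the pools these were 3.87% and 25.1%, 1.41% and 24.4%, and 4.93% and 12.96%. Copies of Rpl15 held 19.8% and 90.8% in the control wells, and 13.8% and 26.7% in the pools. The levels of these genes in the control wells are therefore uncertain. Copies of Rps25 held 32.5% in the pools at E11.5, the highest share of a member there. With copies added to each gene and to the sum, the composition ratios between pools named here moved by little: Rpl3 had 0.64 and 0.71 between the E11.5 tissues and Rpsa 0.52 between the E11.5 AGM gates.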

How the data were processed

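Single cells of mouse AGM and yolk sac were measured on 2 ICELL8 chips. The authors deposited, for each chip, a table of whole-number counts of every gene in every well, with a table that gives each well's pool. Per the submitters' processing notes, reads were checked with FastQC, trimmed with cutadapt and mapped with STAR to mm10 (GRCm38). Tool versions, the counting step with its annotation, and whether molecular identifiers were collapsed are not given in the sources used here.

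A well was kept if it showed 500 genes or more with no more than 20% of its counts from mitochondria: 299, 354, 325 and 305 on the E9.5 chip, then 284, 337, 343 and 379 on the other, in the order AGM positive, AGM negative, yolk sac positive, yolk sac negative. Before this filter the pools had 299, 354, 326 and 305 wells, then 372, 339, 388 and 383. Most wells removed were thus from the E11.5 positive pools. Control wells were not filtered. Pools held 841341 to 3862642 counts and control wells 310576 and 149080. No doublet caller was run. Counts were summed per pool, shares got exact Clopper-Pearson 95% intervals, and ratios exact conditional binomial ones, for members with at least 20 counts over a pair. A bound from 0 counts used a floor of 3 counts. The ratio code was tested on simulated data. Pseudogene copies were sought with BLAST 2.17.0 in GENCODE M21 transcripts. Software was Python 3.11.15, numpy 2.4.6, scipy 1.17.1, pandas 2.3.3, matplotlib 3.10.9 and R 4.3.3 with edgeR 4.0.16, used for trimmed mean of M-values (TMM) factors alone.

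The members and lists were chosen with earlier results of these data known. Named members were, in each comparison, the 3 with the highest and the 3 with the lowest composition ratio among those with at least 100 counts, those on the same side in all 4 gate or tissue pairs, the 5 highest per kilobase, and a list of 21 named whatever their values. Rpl29, Rpl30, Rpl35, Rps13, Rpl21, Rps25 and Rps3 were named after their values were seen. Some results that the rule names are not reported here. The alternatives tried were keeping all wells, a strict filter, equal weight per well, totals without haemoglobin and mitochondrial genes, TMM scaling, other limits on counts, rows outside the rule and no thinning. Those added after seeing the data left Gm42418 out of the total as well, added counts of copies, or took wells with at least 3 endothelial markers.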

Additional observations from a re-analysis of the deposited data

Results flagged for a closer look

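The negative control wells, which entered no comparison, held ribosomal protein counts: 695 of 6452 counts (10.8%) on the E9.5 chip and 995 of 17289 (5.76%) on the E11.5 chip, where 3 counts would be 0.0465% and 0.0174%. These shares lie below the positive control wells of the same chip. At E9.5 the share was also below that of every pool. At E11.5 it was above the yolk sac positive pool (4.98%) and below the other pools. The median negative control well there held 5.985%, above the medians of AGM positive (4.86%) and yolk sac positive wells (4.36%). Median depth of the negative control wells was 124.5 counts at E9.5 and 329 at E11.5. The source of these counts was not tested.

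The summed log2 ratio of AGM over yolk sac had opposite signs at the 2 stages, -0.025 at E9.5 and 0.34 at E11.5 in the positive gate and -0.026 and 0.48 in the negative gate. The difference between stages was not tested, and stage and chip cannot be told apart.

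At E9.5 some composition ratios between gates lay on opposite sides of 0 in AGM and yolk sac, each with an interval excluding 0: Rpl14 (0.28 and -0.12), Rpl3 (-0.16 and 0.075), Rpl9 (0.14 and -0.10) and Rpsa (0.071 and -0.19). Between tissues, the positive and negative gate of E9.5 differed in this way for Rpl14 (0.16 and -0.23), Rpl9 (0.095 and -0.14), Rps20 (-0.18 and 0.068), Rps4l (-0.74 and 0.56) and Rpsa (0.15 and -0.11). Both lists use the same 4 pools. These differences were not tested.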

How the results depend on the processing

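No paired analysis was possible because each pool is 1 sample and the labels give no replicate numbers. No pool could be left out for the same reason. Composition ratios of named members moved least: over the alternatives run, 1072 stayed within the counting interval, 31 moved outside it and 5 whose interval excluded 0 changed sign, all 5 under the strict filter at E11.5. The 5 were Rpl41 (-0.015) and Rplp0 (-0.00035) between the AGM gates, Rplp0 (-0.25) and Rplp2 (-0.017) between the yolk sac gates, and Rpsa (0.011) between the tissues in the positive gate. Ratios whose interval held 0 also changed sign in places and are not among the 5. Counting intervals are narrow, so small moves of the sums leave them.

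Values below follow the order AGM, yolk sac for E9.5 and then E11.5 for gate ratios, and E9.5 positive, E9.5 negative, E11.5 positive, E11.5 negative for tissue ratios. Gate ratios of the summed members were 0.18, -0.50, -0.16 and -0.31 with totals without haemoglobin and mitochondrial genes, 0.17, -0.57, 0.046 and -0.24 also without Gm42418, and 0.33, -0.95, 0.13 and -0.38 with TMM scaling. With equal weight per well they were -0.13, -0.13, -0.71 and -0.49, and with positive wells limited to those with at least 3 endothelial markers -0.12, -0.13, -0.52 and -0.30. At E11.5 they were -0.63 and -0.44 with no cell filter and -0.14 and -0.076 with the strict one. Tissue ratios were 0.046, -0.63, 0.10 and -0.051 without haemoglobin and mitochondrial genes, 0.093, -0.65, 0.094 and -0.19 also without Gm42418, and 0.12, -1.16, 0.10 and -0.41 with TMM scaling. Equal weight gave 0.033, 0.028 and 0.26 for the first 3, wells with endothelial markers 0.26 and no cell filter 0.30 for the E11.5 positive gate, and the strict filter 0.44 and 0.51 at E11.5. The signs that turned were those of E9.5 AGM and E11.5 AGM between gates, and of both E9.5 pairs and the E11.5 negative gate between tissues. The cause was not tested.

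Pool shares are in the order AGM positive, AGM negative, yolk sac positive, yolk sac negative. Without haemoglobin and mitochondrial genes the E9.5 values were 18.0%, 15.9%, 17.4% and 24.7%, the E11.5 values 9.29%, 10.3%, 8.64% and 10.7%, and the well medians 20.1%, 17.4%, 17.6% and 25.6%, and 8.50%, 10.2%, 8.21% and 10.8%. With rows outside the rule added, pool shares were 14.1%, 15.3%, 14.3% and 15.6%, and 6.74%, 9.96%, 5.31% and 7.12%. The strict filter gave 8.73%, 9.64%, 6.41% and 6.76% at E11.5, with well medians of 8.81%, 10.0%, 4.73% and 6.11%. Equal weight gave 13.9%, 15.3% and 15.0% for E9.5 AGM positive, AGM negative and yolk sac negative, and 5.71%, 4.77% and 6.71% for E11.5 AGM positive, yolk sac positive and yolk sac negative. No cell filter gave 6.04% and 4.91% for the E11.5 positive pools. Without thinning the median number of members with a count was 75, 74, 73 and 75 on the first chip, and 54 and 66 in the yolk sac pools of the second.

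Members at least 2-fold apart changed in number mainly with the total. With TMM scaling 19 were lower in the positive gate of E9.5 yolk sac, 64 lower in AGM in the E9.5 negative gate, 0 lower in the positive gate of E11.5 AGM, and 0 higher and 1 lower in AGM in the E11.5 negative gate. Without haemoglobin and mitochondrial genes, 1 was lower in the E9.5 negative gate, 0 lower in E11.5 AGM and 0 higher in the E11.5 negative gate. With no limit on counts, 1 was higher between the gates in each E9.5 tissue, 2 were higher and 1 lower in E11.5 yolk sac, 2 higher and 1 lower in the E11.5 positive gate, and 4 higher in the E11.5 negative gate. The strict filter gave 1 higher in E9.5 yolk sac, 0 lower in E11.5 AGM, 1 higher in the E11.5 positive gate and 4 higher in the E11.5 negative gate. Depth limits the E11.5 chip most, where a well has a median of 2538 to 3842 counts.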
